A study of Homo sapiens with 6 samples.

Results

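The 10 genes described here respond to or restrain canonical Wnt signalling and were followed through the differentiation of WA09 human embryonic stem cells: LEF1, AXIN2, NKD1, NOTUM, RNF43, ZNRF3, APCDD1, LGR5, SP5 and TNFRSF19. The genes were chosen by name, and each was read from a probe set that carries its symbol alone, taking the one with the greatest mean signal. All 10 genes had exactly 1 probe set, out of 18417 genes with a probe set of their own. The rule uses no difference between groups, although the set was chosen with earlier results of these data known.

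WA09 is an established human embryonic stem cell line, and total RNA was profiled on 6 Affymetrix whole-transcript arrays, 2 for each of 3 groups. The hESC group was undifferentiated and kept in StemPro defined medium. The INM group, nascent mesoderm positive for ISL1, and the SMC group, smooth muscle cells, had been given 25 ng/ml Wnt3a together with 50 ng/ml BMP4 in defined medium, INM for 4 days and SMC for 21 days. Both signals were supplied together, so an effect of Wnt3a and an effect of BMP4 cannot be told apart, and day and cell type change together. All groups come from 1 cell line, no derivative without Wnt3a is analysed here, and the labels do not say whether the 2 arrays of a group are separate cultures; the p-values therefore cover only array-to-array spread, which may be technical. In bulk RNA, fewer cells of a type and less RNA per cell cannot be told apart.

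In canonical Wnt signalling, a Wnt ligand bound to a Frizzled receptor and its LRP co-receptor halts the complex that marks beta-catenin for breakdown. Beta-catenin then enters the nucleus and joins TCF/LEF factors on DNA. Among the genes this switches on are several that turn the pathway back down: AXIN2 rebuilds the breakdown complex, NKD1 binds Dishevelled, RNF43 and ZNRF3 strip Frizzled from the cell surface, and NOTUM and APCDD1 act on the ligand outside the cell. Such feedback genes are commonly read as a sign that the pathway is active. The Wnt gradient of the early embryo is known for patterning the mesoderm.

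TCF/LEF factors bind a short motif, and 3 promoters are shown here to set genes that changed beside one that was not called: SP5, which was not called in any comparison, LEF1, which was higher in both derivatives, and RNF43, which was highest in INM. The letters are the 250 bases before 1 annotated start of each gene, 5′ to 3′ in the direction of the gene, from RefSeq on GRCh38.p14. Capitals mark CTTTGA, or TCAAAG where the motif lies on the other strand.
SP5, chr2:170715087-170715336, plus strand: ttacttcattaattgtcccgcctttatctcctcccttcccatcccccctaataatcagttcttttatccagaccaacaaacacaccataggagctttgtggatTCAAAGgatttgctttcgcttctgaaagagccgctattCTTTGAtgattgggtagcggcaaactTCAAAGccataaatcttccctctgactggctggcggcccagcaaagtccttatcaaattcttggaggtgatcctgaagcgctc
LEF1, chr4:108166302-108166551, minus strand: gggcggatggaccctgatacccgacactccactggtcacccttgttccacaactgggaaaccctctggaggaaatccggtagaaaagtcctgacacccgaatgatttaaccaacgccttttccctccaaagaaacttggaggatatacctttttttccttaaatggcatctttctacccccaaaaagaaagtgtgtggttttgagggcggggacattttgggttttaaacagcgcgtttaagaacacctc
RNF43, chr17:58417535-58417784, minus strand: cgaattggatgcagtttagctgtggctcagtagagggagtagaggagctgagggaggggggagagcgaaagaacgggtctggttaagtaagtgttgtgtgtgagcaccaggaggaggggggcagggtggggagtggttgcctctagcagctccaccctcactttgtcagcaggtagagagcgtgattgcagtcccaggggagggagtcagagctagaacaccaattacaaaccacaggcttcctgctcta

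The RefSeq promoter table held 5 of the 10 genes (APCDD1, LEF1, RNF43, SP5 and TNFRSF19) with 7 promoters. CTTTGA, searched on both strands, was in 1 of the 7, that of SP5, and in 11.2% of all 35116 promoters over the same length. The SP5 promoter held it 3 times, starting at positions -147, -109 and -83 from the start, and 0.977% of all promoters held it at least 2 times. The copy at -109 was also the longer CTTTGAT, which contains the shorter motif and was in 2.26% of all promoters. These matches are letters in a short window and not measured binding sites.

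The labels were checked against marker genes first. ISL1, which names the INM group, was at 5.54 and 5.28 in hESC, at 9.46 and 9.55 in INM, with 6.41 and 6.31 in SMC on the log2 scale. In SMC, 9 of 10 smooth muscle markers were higher than in hESC, while the mature marker MYH11 was not called (5.59 and 5.43 in SMC, 5.77 and 5.51 in hESC). Of the 10, 6 were already higher in INM than in hESC and 1, ACTG2, was lower (-1.33), and 4 were higher in SMC than in INM. Of 11 lateral mesoderm markers, 10 were higher in INM than in hESC and 0 were lower. Of 6 trophoblast and amnion markers, 3 were higher in INM than in hESC as well: TFAP2A by 5.37, IGFBP3 by 3.51 and TFAP2C by 0.79. CGA (0.81), GCM1 (0.21) and ISM2 (0.15) were not called. In SMC relative to hESC, TFAP2A (2.65) and IGFBP3 (4.36) were also higher, and TFAP2C was lower (-1.90). The part of the trophoblast and amnion markers in the rises of the 10 genes in INM was not tested. All 10 pluripotency markers were lower in SMC than in hESC, and 7 of the 10 were lower in INM. Over all genes, 18.9% were called higher and 14.8% lower in INM than in hESC. For SMC against hESC these shares were 19.7% and 17.6%, and 9.94% were called higher in SMC than in INM. The INM arrays stood further apart than those of the other groups: 700 genes differed by over 1 on the log2 scale between them, against 16 in hESC and 11 in SMC. A fit without an INM array takes its spread from the hESC and SMC pairs alone. Calls gained or kept in it do not carry the INM spread. A fit without an hESC or SMC array draws more of its spread from the INM pair. Signal over background was not measured here, and 5.04, the lowest array median of probe sets without a gene name, is used below only as a low mark.

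**Figure D1:**
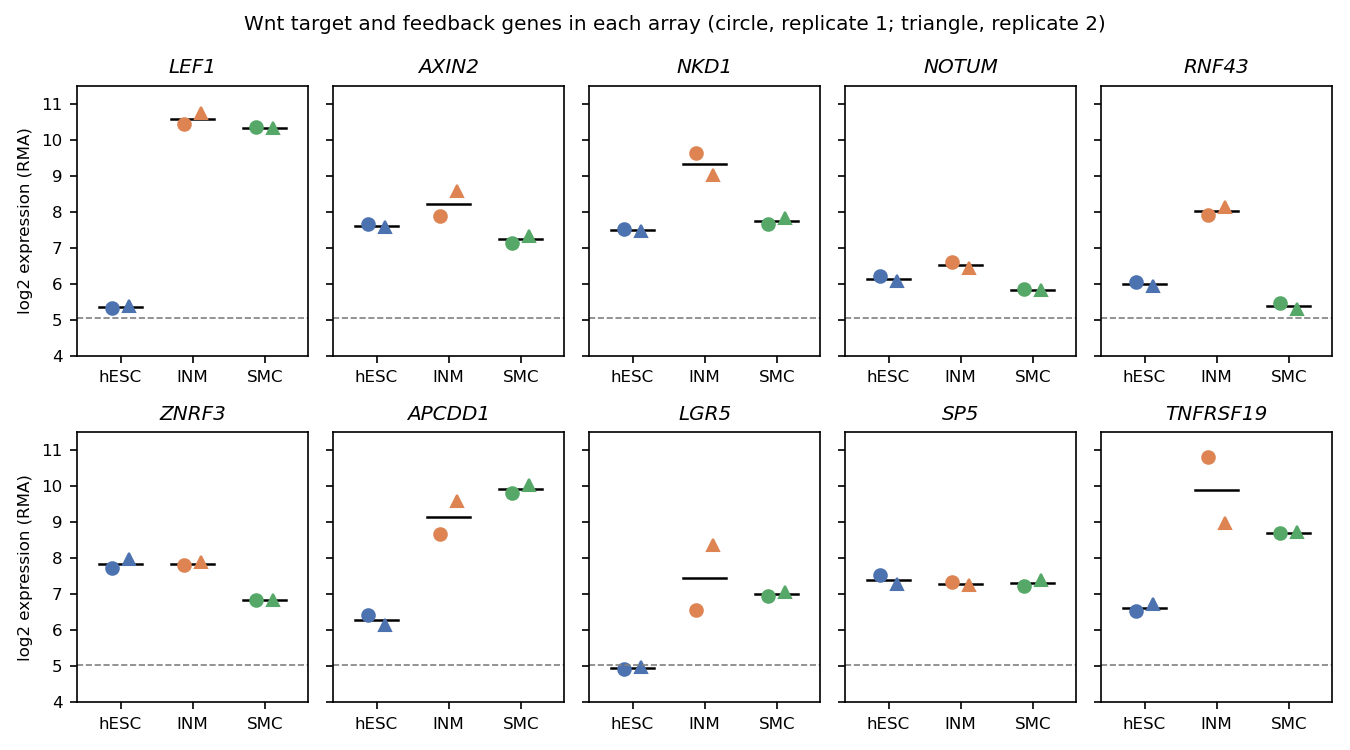
Log2 expression (vertical axis) of the 10 genes in each of the 6 arrays, by group in order of stage; circles are replicate 1, triangles replicate 2, black lines the mean of 2 arrays and the dashed line the low mark of 5.04. LEF1, APCDD1, LGR5 and TNFRSF19 are higher in both INM and SMC than in hESC, NKD1 and RNF43 stand high in INM only, and SP5 is level.

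LEF1 and SP5 are the DNA-binding transcription factors of the set. LEF1 itself partners beta-catenin and is also a target of it. It was at 5.33 and 5.38 in hESC, 10.44 and 10.75 in INM, with 10.37 and 10.33 in SMC (probe set 8102232). Every INM and SMC array lay far above both hESC arrays, and the hESC level was close to the low mark.

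LEF1 rose 37.8-fold in INM over hESC, 5.24 in log2 terms (SE 0.14, limma adjusted p = 8.39e-06), which was the 14th largest rise among the 18417 genes. In SMC it was still 31.8-fold above hESC, at 4.99 (SE 0.14, adjusted p = 1.22e-05). SMC and INM were not called apart, at -0.25 (95% interval -0.58 to 0.08, adjusted p = 0.257). Without INM replicate 1 that difference was -0.41.

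SP5, a zinc-finger repressor of the Sp family and the gene whose promoter held 3 motifs, was at 7.53 and 7.30 in hESC, 7.35 and 7.25 in INM, with 7.23 and 7.40 in SMC (probe set 8046276). The groups overlapped throughout. INM minus hESC was -0.11 (95% interval -0.43 to 0.20, adjusted p = 0.544), and SMC minus INM was 0.01 (95% interval -0.31 to 0.33, adjusted p = 0.964). The intervals leave out a change in signal of the size seen for LEF1, NKD1 or RNF43 in INM. Whether this probe set reads SP5 RNA above background was not tested. The sign of the small SP5 differences flipped with median centring of the arrays.

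AXIN2 and NKD1 are inhibitors inside the cell. AXIN2, the scaffold of the beta-catenin breakdown complex that Wnt signalling itself restores, was at 7.66 and 7.57 in hESC, 7.89 and 8.58 in INM, with 7.15 and 7.34 in SMC (probe set 8017718). Both INM arrays lay above all others, by a margin that differed between them. The rise of INM over hESC was not called, at 0.62 (SE 0.22, 95% interval 0.08 to 1.16, adjusted p = 0.0775). It was called with median centring, at 0.81 (adjusted p = 0.0358). The rise was 0.96 without INM replicate 1 and 0.27 without INM replicate 2.

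From INM onwards AXIN2 fell: SMC was 1.98-fold lower than INM, -0.99 in log2 terms (SE 0.22, adjusted p = 0.0255). That call ended without either hESC array (adjusted p = 0.0654 each), without SMC replicate 1 (0.159) and without SMC replicate 2 (0.112). Without INM replicate 2 the change was -0.64. SMC minus hESC was -0.37 (95% interval -0.91 to 0.17, adjusted p = 0.244), and in the fit on the SMC and hESC arrays alone, as without either INM array, it was called lower (adjusted p = 0.0276).

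NKD1, which binds Dishevelled and blunts the relay from the receptor, was at 7.54 and 7.47 in hESC, 9.63 and 9.03 in INM, with 7.68 and 7.83 in SMC (probe set 7995525). The INM arrays stood apart from the other 4, which lay close together. NKD1 rose 3.56-fold in INM over hESC (1.83, SE 0.20, adjusted p = 0.00113) and fell 2.99-fold in SMC relative to INM (-1.58, SE 0.20, adjusted p = 0.00308). SMC minus hESC was 0.25 (95% interval -0.23 to 0.73, adjusted p = 0.375).

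RNF43 and ZNRF3 are transmembrane ubiquitin ligases that remove Frizzled receptors, and they are close relatives. RNF43 was at 6.05 and 5.95 in hESC, 7.92 and 8.14 in INM, with 5.46 and 5.31 in SMC (probe set 8016994). No 2 groups overlapped, with INM the highest and SMC the lowest. RNF43 rose 4.09-fold in INM over hESC (2.03, SE 0.13, adjusted p = 1.71e-04) and fell 6.27-fold in SMC relative to INM (-2.65, SE 0.13, adjusted p = 1.21e-04). SMC also lay below hESC, at -0.62 (SE 0.13, adjusted p = 0.0111), and this last call ended without hESC replicate 1 (adjusted p = 0.0777) or SMC replicate 2 (0.0905).

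ZNRF3 was at 7.72 and 7.99 in hESC, 7.82 and 7.89 in INM, with 6.84 and 6.85 in SMC (probe set 8072160). The INM values lay inside the hESC range and both SMC values lay below every other array. INM minus hESC was 0.00 (95% interval -0.31 to 0.31, adjusted p = 0.999), while SMC was 2.01-fold lower than INM (-1.01, SE 0.13, adjusted p = 0.00316) and 2.01-fold lower than hESC (adjusted p = 0.00143). RNF43 changed at day 4 and ZNRF3 was not called there; the difference between the genes was not tested.

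NOTUM and APCDD1 act outside the cell. NOTUM, a secreted enzyme that removes the lipid from Wnt ligands, was at 6.21 and 6.08 in hESC, 6.62 and 6.45 in INM, with 5.86 and 5.82 in SMC (probe set 8019334). The groups did not overlap, but the steps were small. INM was 1.31-fold above hESC (0.39, SE 0.12, adjusted p = 0.0487), and the call ended without any single array other than INM replicate 2, with adjusted p between 0.0961 and 0.205.

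The NOTUM call also ended with the replicate number as a block (adjusted p = 0.061), in the fit on the 2 groups alone (0.101), with an intensity trend (0.053) and with array weights (0.0877). SMC was 1.62-fold below INM (-0.69, SE 0.12, adjusted p = 0.0101), which ended without SMC replicate 1 (0.0779) or 2 (0.0928). SMC minus hESC was -0.30 (SE 0.12, adjusted p = 0.0945), and it was called lower without either INM array (adjusted p = 0.0427) and with array weights (0.037).

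APCDD1, a membrane glycoprotein that binds Wnt ligands and their LRP co-receptor, was at 6.43 and 6.14 in hESC, 8.69 and 9.60 in INM, with 9.81 and 10.04 in SMC (probe set 8020141). Its order followed the stages, and the 2 derivatives were far above hESC. APCDD1 rose 7.25-fold in INM over hESC (2.86, SE 0.29, adjusted p = 8.53e-04) and 12.5-fold in SMC over hESC (3.64, SE 0.29, adjusted p = 2.15e-04). The step from INM to SMC was not called, at 0.78 (95% interval 0.09 to 1.48, adjusted p = 0.107). It was 0.33 without INM replicate 1 and 1.24 without INM replicate 2.

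LGR5 and TNFRSF19 are cell-surface receptors. LGR5, which binds R-spondins and so shields Frizzled from RNF43 and ZNRF3, was at 4.92 and 4.98 in hESC, 6.57 and 8.36 in INM, with 6.96 and 7.08 in SMC (probe set 7957140). The hESC level lay under the low mark and is not shown to lie above background, so its differences from hESC are given only as bounds. LGR5 was higher in INM than in hESC (adjusted p = 0.0108) and higher in SMC than in hESC (adjusted p = 0.0191). With hESC set at the low mark, the INM mean was at least 5.37-fold and the SMC mean at least 3.93-fold higher, and these bounds rest on that mark.

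Those calls ended when an hESC array was left out. For INM versus hESC the adjusted p was 0.0758 without hESC replicate 1 and 0.0663 without hESC replicate 2. For SMC versus hESC it lay between 0.0907 and 0.105 without any 1 of the 4 hESC and SMC arrays. The SMC versus hESC call was kept in the fit on the SMC and hESC arrays alone. INM replicate 1 alone lay 2.89-fold above the low mark and INM replicate 2 9.98-fold above it.

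The position of INM against SMC could not be settled for LGR5, because the SMC arrays lay between the 2 INM arrays. SMC minus INM was -0.45 (95% interval -1.66 to 0.76, adjusted p = 0.584). It was -1.34 without INM replicate 1 and 0.45 without INM replicate 2.

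TNFRSF19, a receptor of the TNF family also called TROY, was at 6.54 and 6.72 in hESC, 10.81 and 8.98 in INM, with 8.71 and 8.73 in SMC (probe set 7968015). Here INM replicate 1 was the higher array, the reverse of LGR5. TNFRSF19 rose 9.60-fold in INM over hESC (3.26, SE 0.52, adjusted p = 0.00459), with 2.34 and 4.18 without INM replicates 1 and 2. In SMC it was 4.25-fold above hESC (2.09, SE 0.52, adjusted p = 0.0206). This call ended without any 1 of the 4 hESC and SMC arrays. It was kept in the fit on the SMC and hESC arrays alone. SMC minus INM was -1.18 (95% interval -2.42 to 0.07, adjusted p = 0.165). It was -0.26 without INM replicate 1 and -2.09 without INM replicate 2.

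**Figure D2:**
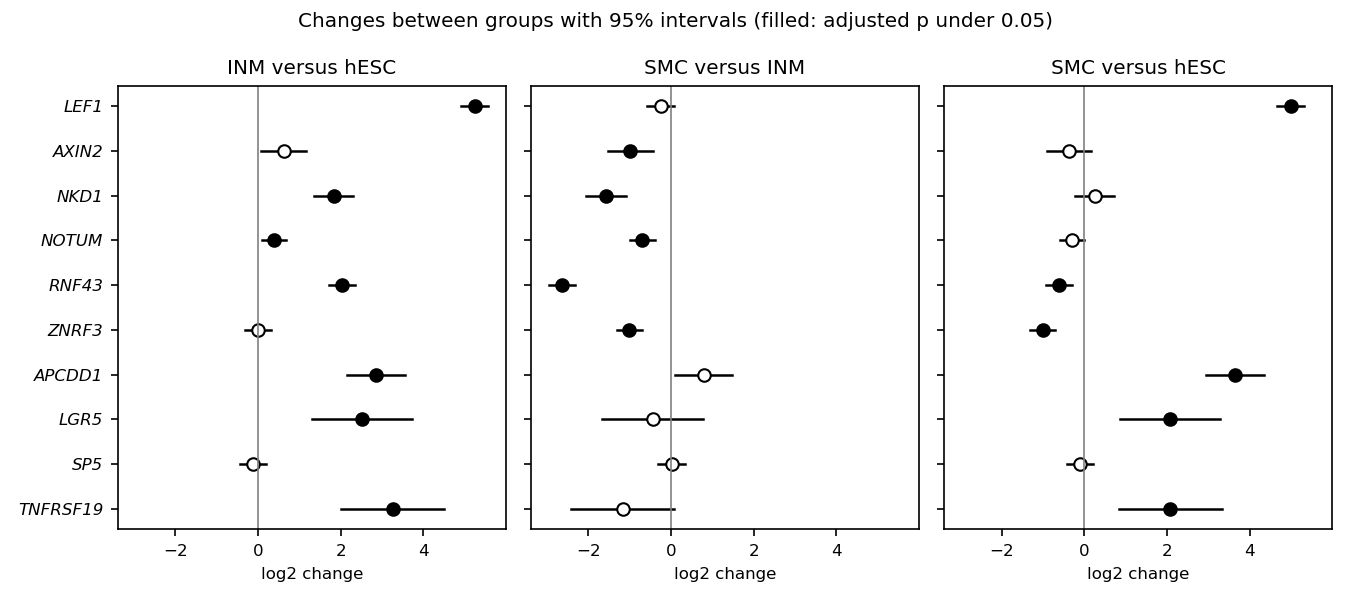
Log2 change (horizontal axis) of the 10 genes in the 3 comparisons of groups, each the first-named group minus the second; points are differences of group means, lines their 95% intervals from limma, and filled points passed an adjusted p under 0.05. The intervals of LGR5 and TNFRSF19 are the widest, and the filled points of SMC versus INM all lie below 0.

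Counted together, 7 of the 10 genes were higher in INM than in hESC and 0 were lower, where 18.9% of all genes were called higher and 33.8% were called in either direction. AXIN2, ZNRF3 and SP5 were not called. The median change of the 10 was 1.93, against -0.03 over all genes tested. The calls of LEF1, NKD1, RNF43, APCDD1 and TNFRSF19 were kept in all 6 fits that left out 1 array.

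In SMC relative to INM, 5 of the 10 genes (AXIN2, NKD1, NOTUM, RNF43 and ZNRF3) were lower and 0 were higher, where 11.1% of all genes were called lower and 9.94% higher. Inhibitors make up most of the 10 genes, and all 5 lower genes code for inhibitors of the pathway. Of the genes not called, TNFRSF19 (-1.18), LGR5 (-0.45) and LEF1 (-0.25) also lay below 0. SP5 was at 0.01, and APCDD1, another inhibitor, had the largest value above 0, at 0.78. The median over the 10 was -0.84, against -0.02 over all genes. NKD1, RNF43 and ZNRF3 kept their calls in every fit without 1 array; without SMC replicate 1 or 2 the count was 3, and without INM replicate 2 it was 8.

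In SMC relative to hESC, 4 of the 10 genes were higher (LEF1, APCDD1, LGR5 and TNFRSF19; 19.7% of all genes were called higher) and 2 were lower (RNF43 and ZNRF3; 17.6% of all genes were called lower and 37.2% in either direction). The count of 6 became 3 without hESC replicate 1 or SMC replicate 2. LEF1, ZNRF3 and APCDD1 kept their calls in all 6 such fits. The 3 comparisons share arrays and are not independent of each other.

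Across the 3 groups, the moderated F test called 9 of the 10 genes, all except SP5, where 45.5% of all genes were called; without either hESC array or without SMC replicate 2 it called 6. Against the mean of hESC and SMC, 8 genes were higher in INM, and 0 were lower, where 13.8% of all genes were called higher and 10.3% lower. A positive value there does not place INM above both other groups, since APCDD1 passed with INM below SMC. LEF1 (2.74, SE 0.12), RNF43 (2.34, SE 0.11) and NKD1 (1.71, SE 0.17) kept this call in all 6 fits without 1 array. AXIN2, APCDD1 and TNFRSF19 lost it without any 1 of the hESC and SMC arrays (adjusted p between 0.058 and 0.0996), NOTUM without hESC replicate 2 or either SMC array (0.0526 to 0.0645) and ZNRF3 without hESC replicate 1 or either SMC array (0.0628 to 0.0811), and the count was 4 without either hESC array and 3 without either SMC array. LGR5 was not called (adjusted p = 0.052), and its change was 2.38 without INM replicate 1 and 0.59 without INM replicate 2.

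The spread between the INM arrays touched these genes unevenly. In INM, 5 of the 10 differed by over 0.5 on the log2 scale between the 2 arrays, against 15.2% of all genes. In hESC and in SMC 0 of the 10 did, where 2.78% and 1.71% of all genes did. TNFRSF19 was 1.84 higher in replicate 1, a difference that 0.793% of all genes exceeded in size. LGR5 was 1.79 lower in replicate 1, which 0.858% exceeded. APCDD1 and AXIN2 were lower in replicate 1, at -0.91 and -0.69, and NKD1 was higher, at 0.60, whereas RNF43 and LEF1 differed by -0.22 and -0.32.

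**Figure D3:**
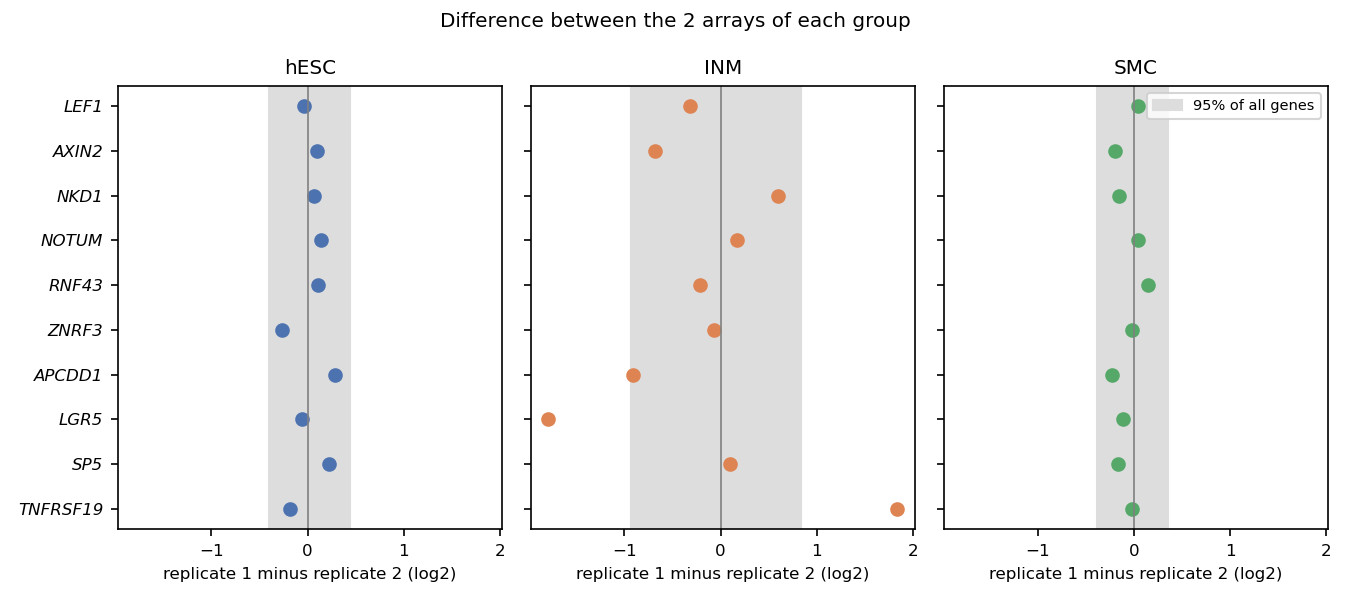
Replicate 1 minus replicate 2 on the log2 scale (horizontal axis) for the 10 genes in each group; the grey band spans the middle 95% of all 18417 genes. In INM, LGR5 and TNFRSF19 fall outside the band on opposite sides, and in hESC and SMC all points lie inside it.

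Some marker lists differed between the same pair of arrays, and others lay close. The mean of 11 lateral mesoderm markers was 9.15 in INM replicate 1 and 9.65 in replicate 2, with replicate 1 the higher in 3 of 11. For 6 trophoblast and amnion markers the means were 8.33 and 7.58, with replicate 1 the higher in 5 of 6, and for 10 pluripotency markers 7.54 and 7.81, with replicate 1 the higher in 3 of 10. For 10 smooth muscle markers they were 9.06 and 8.75, with replicate 1 the higher in 6 of 10. For 6 endothelial markers they were 7.04 and 7.66, with replicate 1 the higher in 3 of 6 and a median difference of 0.04; KDR (9.09 and 11.47) and TEK (7.97 and 10.52) set the gap between the means. For 6 primitive streak markers they were 6.53 and 6.80, with replicate 1 the higher in 0 of 6. For 5 neural markers they were 7.02 and 7.11, with replicate 1 the higher in 3 of 5. For 5 neural crest markers they were 6.04 and 6.04 (3 of 5), and for 5 endoderm markers 5.98 and 6.13 (1 of 5). The part of these differences in the values of LGR5, TNFRSF19, APCDD1 and AXIN2 was not tested.

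The genes with the most similar profiles were sought for the 3 members whose group means ranged widest, by the Euclidean distance over the 6 arrays after centring each gene on its own mean. Nearest to LEF1 were ADAMTS9, a gene of a secreted metalloprotease (distance 0.58 on the log2 scale), the mesenchymal homeobox gene PRRX1 (0.64) and the repressor gene ZEB2 (0.64), where the range of LEF1 itself was 5.24. APCDD1, with a range of 3.64, lay nearest to DAB2 (0.56), which encodes an endocytic adaptor, ANO4 (0.58) and AFAP1L2 (0.64). TNFRSF19, with a range of 3.26, lay nearest to the guidance ligand gene SEMA3C (0.64), ADAMTS6 (0.84) and LGI1 (0.86). SEMA3C was also higher in INM replicate 1 (9.73 and 8.31 in the INM arrays). With 3 groups of 2 arrays, many genes share such a profile.

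Other genes of the pathway were counted by role, and several belong to more than 1 list. Among other Wnt targets, 15 of 30 measured genes were higher in INM than in hESC, 3 were lower (FZD7, ADAMTSL1 and CDX4) and 12 were not called, with a median change of 0.47. That is 60.0% called, against 33.8% of all genes (18.9% higher and 14.8% lower). The largest changes were those of DKK1, a secreted Wnt antagonist (5.93, SE 0.53), the repressor SNAI2 (5.48, SE 0.13), TBX3 (4.13, SE 0.14) and BAMBI, a decoy receptor for BMP signals (3.50, SE 0.11). DKK1 was at 5.21 and 5.05 in hESC, 12.003 and 10.11 in INM, with 11.45 and 11.51 in SMC. Its hESC values were close to the low mark, so the size of its rise is uncertain. SMC minus INM was not called for DKK1, at 0.43 (SE 0.53, adjusted p = 0.626). The call of CDX4 ended without hESC replicate 2 (adjusted p = 0.0688), when the count of 18 called targets was 10.

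In SMC relative to INM, 3 of the 30 targets were higher (ADAMTSL1, CCN4 and MYC) and 7 were lower, with a median of -0.22. That is 33.3% called, against 21.0% of all genes (9.94% higher and 11.1% lower). The largest falls were those of FGF18 (-1.81, SE 0.27), TBX3 (-1.47, SE 0.14) and GAD1 (-1.43, SE 0.21), while ADAMTSL1 was at 2.34 (SE 0.13) and CCN4 at 1.32 (SE 0.17). ADAMTSL1 was at 4.99 and 5.11 in INM, close to the low mark, so the size of its change is uncertain. FGF18, a growth factor, was not called without SMC replicate 1 (adjusted p = 0.0586), nor GAD1 without SMC replicate 1 or 2 (0.052 and 0.0615). MYC, at 0.47 (SE 0.11), was not called without any 1 of the hESC and SMC arrays (0.0687 to 0.196). The count of 10 was 18 without INM replicate 1 and 5 and 6 without SMC replicates 1 and 2.

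Among ligands and their secretion genes, 6 of 20 were higher in INM than in hESC and 0 were lower. This share called was below the 33.8% of all genes, so the count is not a result about the ligands, and the values that follow are those of single genes. WLS, the carrier of secreted Wnt proteins, changed by 5.56 (SE 0.11), WNT5A by 3.87 (SE 0.30), WNT5B by 0.92 (SE 0.13) and WNT11 by 0.78 (SE 0.23; not called without any 1 of the hESC or SMC arrays, adjusted p between 0.0811 and 0.181). WNT3A, the gene of the added ligand, was not called at any step; it was at 6.19 and 6.40 in hESC, 6.25 and 6.16 in INM, with 6.16 and 5.96 in SMC. In SMC relative to INM, 6 of 20 were lower, among them WLS (-1.62, SE 0.11), WNT5A (-1.17, SE 0.30), WNT5B (-1.04, SE 0.13) and WNT3 (-0.97, SE 0.21), and 0 were higher. Over all genes 11.1% were called lower and 21.0% in either direction. The calls of WNT5A and WNT3 ended without any 1 of the hESC or SMC arrays (adjusted p between 0.0538 and 0.187). The count for INM versus hESC was 3 without hESC replicate 2 and 10 without INM replicate 1; for SMC versus INM it was 3 without either hESC array and 2 without either SMC array.

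Of 24 receptors and R-spondins, 8 were higher in INM than in hESC and 5 were lower (FZD5, FZD7, GPC4, LRP6 and FZD3), with FZD5 at -2.66 (SE 0.18) and FZD7 at -2.61 (SE 0.11). That is 54.2% called, against 33.8% of all genes (18.9% higher and 14.8% lower), and the median change was 0.08. The R-spondins RSPO2 and RSPO3 were the largest rises, while RSPO1 (0.34) and RSPO4 (0.07) were not called. RSPO2 changed by 2.90 (SE 0.82, adjusted p = 0.0353), and the change of RSPO3 was 2.73 (SE 0.59, adjusted p = 0.0143). RSPO2 was at 5.44 and 5.05 (close to the low mark) in hESC, 6.69 and 9.60 in INM, with 9.61 and 9.40 in SMC. RSPO3 was at 4.94 (under the low mark) and 5.35 in hESC, 6.84 and 8.90 in INM, with 7.97 and 7.80 in SMC. Both were higher in INM replicate 2, as LGR5 was. The RSPO3 call ended without either hESC array (adjusted p = 0.1 and 0.0661), and that of RSPO2 without any 1 of the hESC and SMC arrays (0.0752 to 0.158).

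Between INM and SMC, 1 receptor gene was higher (ROR2, 1.51, SE 0.28) and 5 were lower (GPC4, ROR1, FZD6, FZD3 and FZD5), led by GPC4 at -2.55 (SE 0.13) and ROR1, a receptor for WNT5A, at -2.39 (SE 0.17). The call of ROR2 ended without SMC replicate 1 or 2 (adjusted p = 0.0715 and 0.103), and that of FZD5 without any 1 of the hESC and SMC arrays (0.0654 to 0.144). The 25.0% called was close to the 21.0% of all genes. The count of 6 was 11 and 13 without INM replicates 1 and 2.

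Secreted antagonists, listed together with membrane proteins such as KREMEN1, went both ways. In INM relative to hESC, 5 of 21 were higher (DKK1, DKK2, KREMEN1, FRZB and SFRP1) and 3 were lower (WIF1, SFRP2 and DRAXIN), with DKK2 at 1.91 (SE 0.21) and SFRP2 at -1.95 (SE 0.28). The 38.1% called was close to the 33.8% of all genes (18.9% higher and 14.8% lower), and the median change was -0.01. FRZB and SFRP1 were not called without any 1 of the hESC or SMC arrays (adjusted p between 0.0749 and 0.16), and the count of 8 was 13 without INM replicate 2. From day 4 to day 21, 3 were higher in SMC (APCDD1L, DKK2 and WIF1) and 3 were lower (SFRP2, KREMEN1 and DRAXIN), with SFRP2 at -3.76 (SE 0.28) and KREMEN1, a DKK1 co-receptor, at -1.08 (SE 0.12). That is 28.6% called, against 21.0% of all genes (9.94% higher and 11.1% lower). Without SMC replicate 1 or 2 this count was 3, when the calls of DKK2, WIF1 and DRAXIN ended (adjusted p between 0.0712 and 0.18), and without INM replicate 2 it was 10. Without either hESC array the calls of DKK2 (0.0547) and WIF1 (0.0668) ended too. WIF1 lay under the low mark in both INM arrays, so no size is given for it.

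Inside the cell, 8 of 27 genes of the beta-catenin breakdown complex and its relay were higher in INM than in hESC and 2 were lower (FRAT2 and CXXC4). The 37.0% called was close to the 33.8% of all genes (18.9% higher and 14.8% lower). The Dishevelled partner DACT1 changed by 2.69 (SE 0.17), DVL3 by 1.17 (SE 0.11), the kinase GSK3B by 1.04 (SE 0.13) and beta-catenin itself, CTNNB1, by 0.75 (SE 0.12). FRAT2 and CXXC4 were not called without any 1 of the hESC or SMC arrays (adjusted p between 0.0563 and 0.129), and the count of 10 was 5 without either hESC array and 6 without either SMC array. CXXC4 was higher in SMC than in INM (0.92, SE 0.11), and DACT1, CTNNB1, AXIN1 and GSK3B were lower in SMC, 18.5% called in all against 21.0% of all genes. CTNNB1, at -0.77 (SE 0.12), was not called without SMC replicate 2 (adjusted p = 0.0795), and AXIN1, the constitutive relative of AXIN2, at -0.70 (SE 0.11), was not called without SMC replicate 1 or 2 (0.0603 and 0.0661). DACT1, at -0.96 (SE 0.17), was not called without SMC replicate 1 or 2 either (0.0813 and 0.0859), nor GSK3B, at -0.49 (SE 0.13), without any 1 array but INM replicate 2 (0.0615 to 0.214), and the count of 5 was 2 and 1 without SMC replicates 1 and 2.

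Among nuclear TCF and beta-catenin factors, 8 of 24 were higher in INM than in hESC and 3 were lower (TLE1, TCF7L1 and RUVBL1). That is 45.8% called, against 33.8% of all genes (18.9% higher and 14.8% lower). LEF1's relative TCF7L1, known as a repressor of Wnt targets in stem cells, was at 10.57 and 10.55 in hESC, 9.85 and 9.81 in INM, with 9.52 and 9.69 in SMC, and its INM change of -0.73 (SE 0.11, adjusted p = 0.00429) was opposite in sign to that of LEF1. TCF7L2, another relative, was not called (-0.0043, SE 0.13). PYGO1, a co-activator bound through BCL9, changed by 2.98 (SE 0.13), the co-repressor TLE4 by 1.95 (SE 0.11), and SOX9 and TLE3 by 1.501 (SE 0.32) and 1.32 (SE 0.31). PYGO1 was at 5.15 and 5.10 in hESC, close to the low mark. SOX9 and TLE3 were not called without either hESC array (adjusted p between 0.0722 and 0.101), RUVBL1 kept its call in 1 of the 6 fits without 1 array, that without INM replicate 2, and the count of 11 was 6 without either hESC array. For SMC versus INM, 0 were higher and 4 were lower (KDM6A, TLE4, CHD8 and TLE1), with TLE4 at -1.42 (SE 0.11) and KDM6A at -1.75 (SE 0.18). The 16.7% called was below the 21.0% of all genes. CHD8 and TLE1 were not called without any 1 of the hESC or SMC arrays (adjusted p between 0.0508 and 0.25), nor TLE1 without INM replicate 2 (0.0757); the count was 2 without any 1 of the hESC and SMC arrays and 8 without INM replicate 1.

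**Figure D4:**
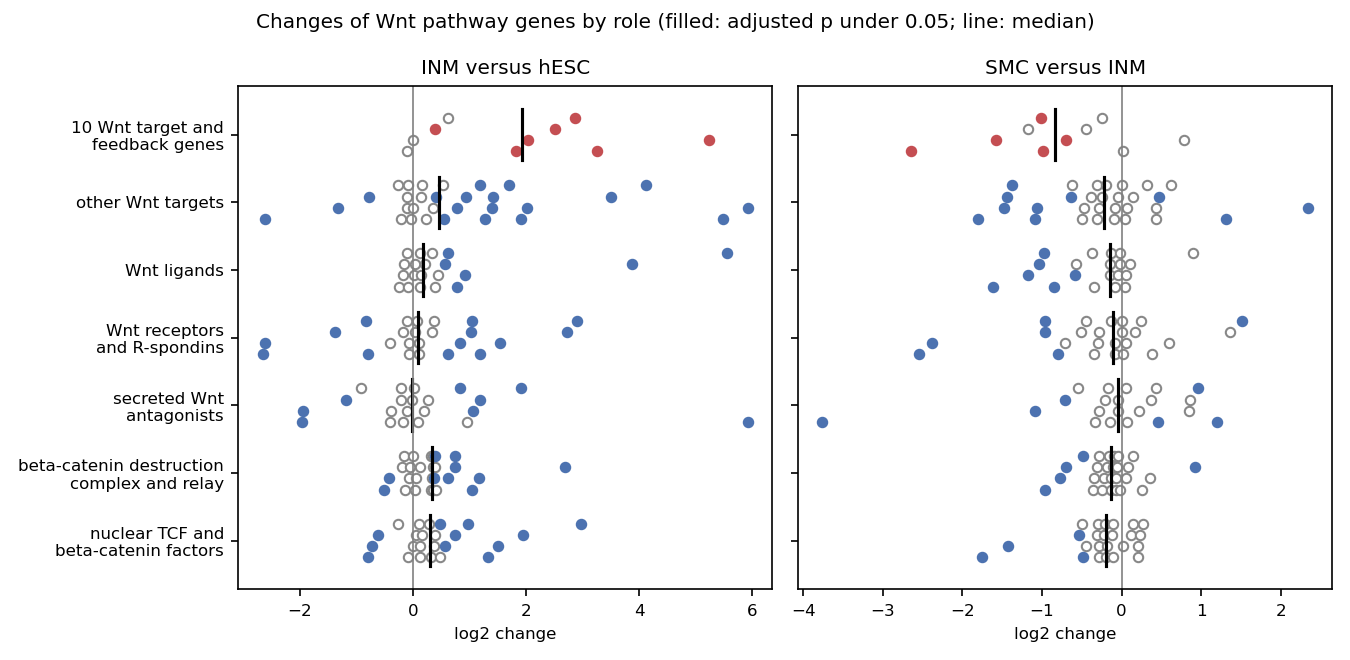
Log2 change (horizontal axis) of the 10 genes (top row) and of 6 other lists of Wnt pathway genes, for INM versus hESC (left) and SMC versus INM (right); each point is a gene, filled points passed an adjusted p under 0.05 and black lines are medians. The medians of the top row are 1.93 and -0.84, and those of the other lists lie between -0.01 and 0.47 on the left and between -0.22 and -0.04 on the right.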

How the data were processed

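Per the submitters' processing notes, the authors used RMA and limma, with no versions or settings given. The deposited values are log2 expression, judged from their range, of 33297 probe sets on each of 6 arrays. No genome build or centring step is stated there. Array medians lay between 6.46 and 6.68. The number of arrays limits the precision.

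Gene names came from GEO's annotation of the array, with symbols updated by Entrez identifier to GRCh38.p14 gene names: 19460 carried 1 symbol, 1754 several and 12083 were unnamed here. The probe set with the highest mean per gene gave 18417 genes. Without further normalization or filter, limma 3.58.1 (R 4.3.3; lmFit, then eBayes) estimated 3 group means from the 6 arrays (3 residual and 3.56 prior degrees of freedom). Tests were two-sided, with Benjamini-Hochberg adjustment over all 18417 genes and calls at an adjusted p under 0.05. SE is the standard error of the log2 change. The smallest exact permutation p for 2 arrays against 2 is 0.333. The fit was tested on simulated data with the same spread in every group. That test does not cover the wider spread of the INM arrays.

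Named pathway genes were up to 4 per list with the largest called change in INM versus hESC and in SMC versus INM, with all genes behind a count of 5 or fewer; others (TCF7L2, WNT3A) were named after their values were seen. The low mark of 5.04 was the lowest array median of probe sets with no gene name. Members and lists were chosen with earlier results of these data known. Alternatives were a replicate block, 2 scalings, a low-signal filter, fits on 2 groups, an intensity trend, array weights, mean probe sets and leaving out each array.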

Additional observations from a re-analysis of the deposited data

How the results depend on the processing

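Over the 6 fits that left out 1 array, the number of the 10 genes called was 5 to 7 for INM versus hESC, 3 to 8 for SMC versus INM, 3 to 8 for SMC versus hESC, 6 to 9 for any difference between groups and 3 to 9 for INM versus the mean of hESC and SMC. Over all genes the counts were 2939 to 7520, 1134 to 6143 and 3803 to 9200 for the 3 comparisons of pairs of groups, against 6217, 3874 and 6859 with all arrays. In the fit on the 2 compared groups, 2541 genes were called for SMC versus INM; the cause was not tested. With the replicate number as a block, 6, 5 and 6 of the 10 genes were called in the 3 comparisons (5713, 3392 and 6429 of all genes), NOTUM in INM versus hESC was no longer called (0.39, adjusted p = 0.061) and LGR5 in INM versus the mean was (adjusted p = 0.0376). Deviations of arrays with the same number correlated at 0.07 for hESC with INM, -0.12 for hESC with SMC and -0.07 for INM with SMC. These values show no clear pairing by number but cannot exclude a weak one. Signs turned for ZNRF3 and SP5, where neither sign was called, and for LGR5. ZNRF3 in INM versus hESC was -0.028 with quantile normalization, -0.13 without hESC replicate 1 and -0.03 without INM replicate 2. LGR5 in SMC versus INM was -1.34 without INM replicate 1 and 0.45 without INM replicate 2. SP5 with median centring was 0.074 (INM over hESC), -0.043 (SMC over INM), 0.031 (SMC over hESC) and 0.059 (INM over the mean). SP5 in SMC versus INM was -0.0048 with quantile normalization, -0.039 without INM replicate 2 and -0.072 without SMC replicate 2, in a range of -0.072 to 0.095 over the fits without 1 array. In SMC versus hESC it was 0.010 without hESC replicate 1, in a range of -0.22 to 0.010. Median centring moved the median change of all genes by 0.19 for INM versus hESC and by 0.13 for SMC versus hESC, and quantile normalization moved it by 0.15 for the first. The calls for INM versus hESC were then 5097 higher and 1589 lower with centring and 4111 higher and 2109 lower with quantile normalization, against 3486 and 2731 as deposited. For SMC versus hESC they were 4562 higher and 2303 lower with centring, against 3625 and 3234. With 2 arrays a group, small changes of dim genes such as LGR5 in hESC are not resolved.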
